A study of Vigna unguiculata subsp. sesquipedalis with 24 samples.

Results

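Among 29471 unigenes measured in leaves and roots of asparagus bean, 146 had lower transcript levels under drought in the leaves of line B47 and higher levels under drought in the leaves of line B128. Each was chosen on its log2 intensity in leaves. The mean of the drought-stressed arrays minus the mean of the well-watered (WW) arrays, here called the leaf change, had to lie below -0.7 in B47 and above 0.7 in B128, and the 3 drought arrays had to lie apart from the 3 WW arrays in both lines. Of 189 unigenes past both limits, 149 also had arrays that lay apart, and 3 of these are not reported here. A unigene is a cDNA assembly sequence with its own set of probes on the array, so more than 1 unigene can stand for the same gene. The opposite pattern, higher under drought in B47 leaves and lower in B128 leaves, was met by 43 unigenes under the same limits.

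Both lines are landraces of asparagus bean, the vegetable subspecies of cowpea. B47 is labelled anisohydric like and B128 isohydric like, the terms for plants that let leaf water potential drift and plants that hold it steady. The study's whole-plant transpiration measures ran the other way, with B47 seemingly the most and B128 the least sensitive to drying soil. The study proposed that B47 was the most effective in avoiding dehydration. The labels and these measures were not reconciled here. Per the study's methods, leaf relative water content at sampling was higher in drought-stressed B47 than in drought-stressed B128, so that the line and the water status of its leaves cannot be told apart in the drought samples. Seedlings 16 days old, grown 2 to a pot, were either kept watered or given no irrigation, and the side leaflets of the first trifoliate leaf and the roots were harvested on day 15 of the treatment. Plants of 1 pot were pooled, and each of the 8 groups of line, organ and treatment had 3 arrays labelled as biological replicates. Whether pots were handled in batches was not given, so that p-values measure the spread between pots of 1 harvest. That spread was estimated over leaf and root arrays together.

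Many of the genes described below belong to the early signalling layer of a plant cell. Calcium sensors such as calmodulins bind the calcium that enters the cytosol upon a stimulus, kinases and phosphatases pass the signal on, and zinc finger and DREB/ERF transcription factors change the transcription of target genes. CCR4-associated factors remove the poly(A) tail of messenger RNAs and so set how long transcripts last. In Arabidopsis, transcripts of these families are known to respond to touch, wounding, cold and water deficit, often with a short-lived rise. They are known as regulators of stress responses in leaves and roots alike, and most are members of families with several closely related genes.

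For the 6 drought-root arrays, a label field naming the sample source gave roots while the free description named leaves, and the source was followed. The median log2 level of 5 root marker unigenes (nitrate, iron and water transport and peroxidases) was 8.57 to 9.35 on these arrays and 3.54 to 5.04 on the 12 leaf arrays. The median of 21 photosynthesis unigenes was 7.12 to 8.36 on them and at least 10.51 on every leaf array. Root markers also stood at 12.25 to 13.89 in WW roots, so that all 5 were lower under drought in the roots of both lines without overlap, and the photosynthesis unigenes were lower under drought in the leaves of both lines (median change -1.63 in B47, with 16 of 21 lower and 5 higher, and -2.27 in B128, with 17 lower and 4 higher). In WW plants, 18 of the 21 were higher in leaves than in roots of both lines. Both marker lists come from the study's tables of drought-responsive genes. None of the 146 unigenes is in them, and their part in the results below was not tested. The yeast control entries averaged 14.86 to 15.22 in drought roots and 14.55 to 14.80 in WW roots. In bulk tissue, a change in the share of a cell type and a change of transcript per cell cannot be told apart.

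In WW leaves the 146 unigenes stood high in B47 and low in B128, and under drought the order was turned. Their mean log2 intensity was 11.88, 11.19 and 11.83 on the WW B47 leaf arrays and 8.60, 9.44 and 9.11 on the WW B128 leaf arrays. Under drought it was 9.30, 9.34 and 9.30 in B47 leaves and 10.91, 10.85 and 10.55 in B128 leaves. The 4 leaf groups did not overlap except B47 under drought, whose arrays lay within the range of WW B128. The 3 arrays of each WW leaf group lay farther apart (SD 0.39 in B47 and 0.42 in B128) than those under drought (SD 0.02 and 0.19). The second WW array was the lowest of its group in B47 and the highest of its group in B128, which in both cases brought it nearer to the drought arrays.

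**Figure D1:**
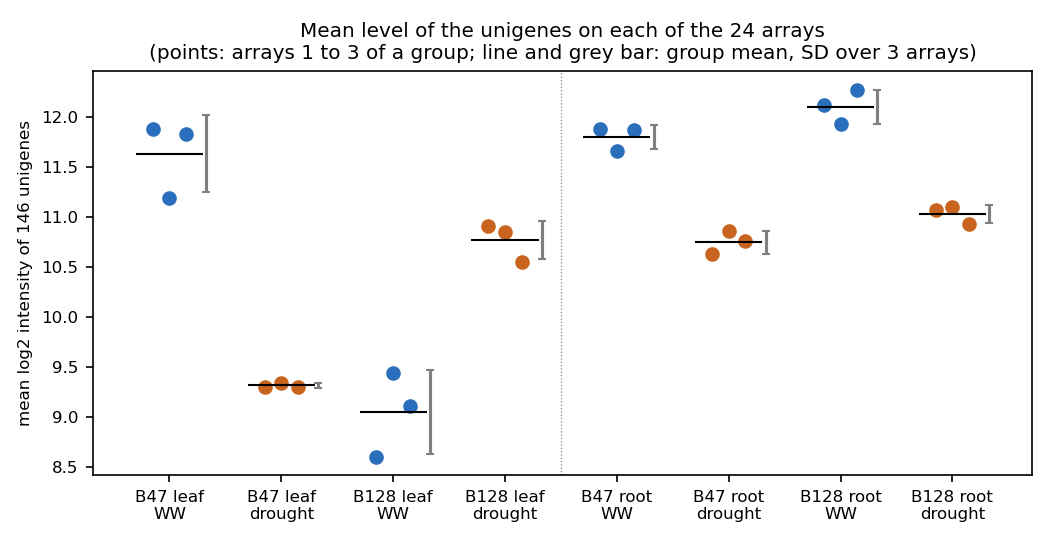
Mean log2 intensity of the 146 unigenes on each of the 24 arrays, by line, organ and treatment (WW, well-watered), with group means and SD over 3 arrays. In leaves the level is 11.63 in WW B47 and 9.05 in WW B128, and drought moves the lines in opposite directions by the choice of the unigenes, whereas in roots both lines are lower under drought.

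In leaves, the median difference between the lines was larger in WW plants than under drought. In 138 of the 146 unigenes, all 3 WW B47 leaf arrays lay above all 3 WW B128 leaf arrays, which was the case for 16.1% of all unigenes, and the median difference was 2.48 on the log2 scale. Under drought B128 leaves lay above B47 leaves without overlap for 124 of them (17.6% of all unigenes), with a median difference of 1.31. Both differences held together in 116. The share of all unigenes with both is not given here, and it cannot exceed 16.1%. These are values of the leaf arrays on which the unigenes were chosen, and so were not tested. In B47 the leaf change ranged from -6.58 to -0.71 with a median of -2.06. In B128 its range was 0.71 to 3.98 and its median 1.47. It was larger in size in B47 for 107 of the 146. In 126, the drought-stressed B128 leaves stayed below the mean level of WW B47 leaves, by a median of 0.89 over all 146 unigenes.

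**Figure D2:**
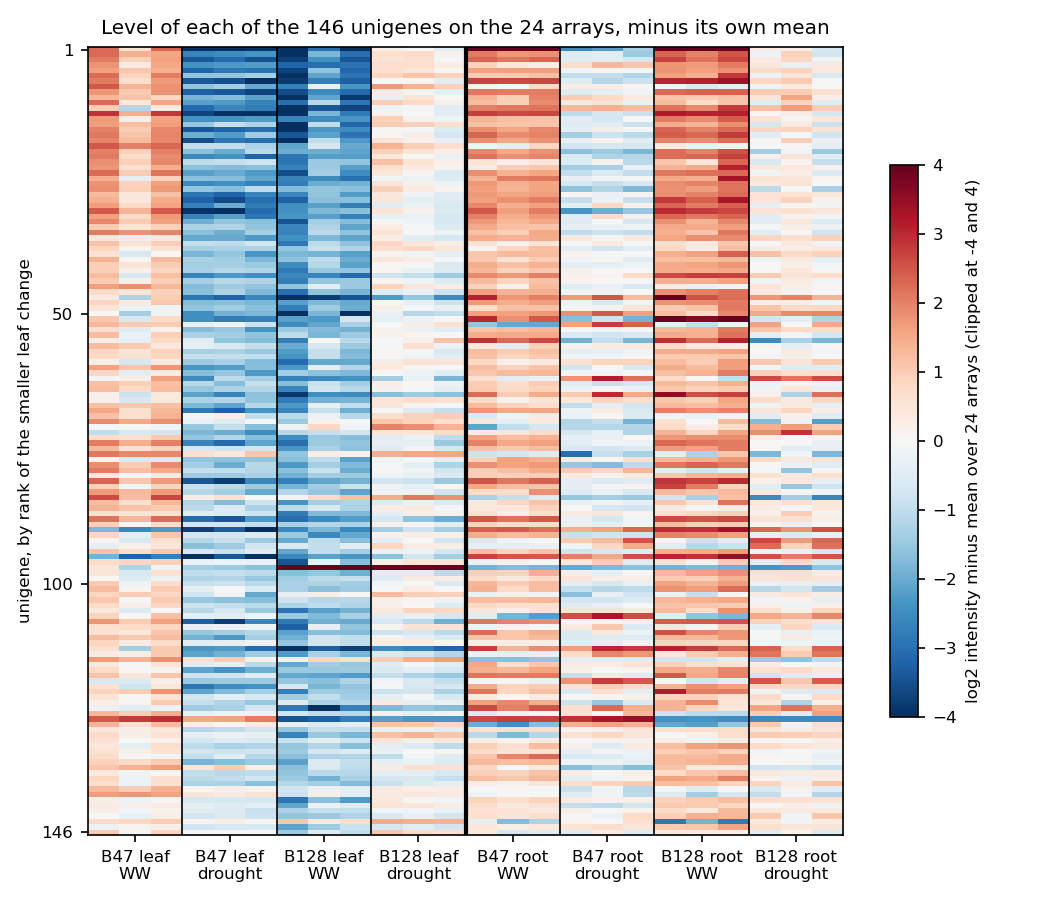
Log2 intensity of each of the 146 unigenes (rows, ranked by the smaller of the 2 leaf changes) on the 24 arrays (columns, in groups of 3), minus the mean of that unigene over all arrays. WW leaves of B47 and WW roots of both lines are high for most rows, WW leaves of B128 are low, and a few rows in the lower part are higher in drought roots than in WW roots.

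The roots had no part in the choice and were tested with limma over all 29471 unigenes, with calls made at 2-fold or more and a false discovery rate not above 0.01. Unlike in leaves, drought went with lower levels in the roots of both lines. In B47 roots 79 of the 146 unigenes were down-regulated (54.1%, against 11.6% of all unigenes) and 10 were up-regulated (6.85%, against 10.9%). In B128 roots 76 were down-regulated (52.1%, against 11.2%) and 9 were up-regulated (6.16%, against 10.5%). The same 68 unigenes were down-regulated in the roots of both lines, which is 86.1% of the B47 calls and 89.5% of the B128 calls, and 7 were up-regulated in both. Of the calls over all unigenes, 75.6% and 78.2% of those down in B47 and in B128 were likewise shared, so that a large overlap was general. Down in both were 46.6% of the 146 against 8.79% of all unigenes, and up in both 4.79% against 7.68%. Without overlap, drought roots lay below WW roots for 102 of the 146 in B47 (24.6% of all unigenes) and 104 in B128 (21.9%), and above them for 13 (34.0%) and 14 (30.8%). None was called in opposite directions, and 47 passed the test in neither line (32.2%, against 72.2% of all unigenes). The median root change of the 146 was -1.15 in B47 and -1.10 in B128, whereas the median over all unigenes was 0.11 in each. Across the 146 unigenes the root changes of the lines had a Pearson correlation of 0.86, and 0.90 over all unigenes, as a description of genes that share arrays.

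**Figure D3:**
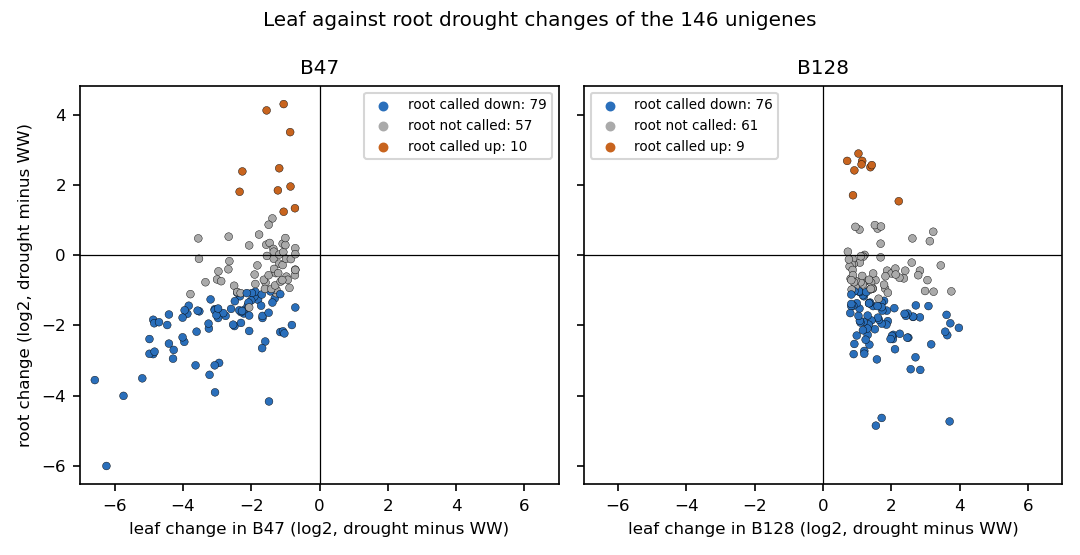
Leaf change (x axis) and root change (y axis) under drought of the 146 unigenes in B47 and B128, in log2 units. Colours mark the unigenes called in roots, with 79 down and 10 up in B47 and 76 down and 9 up in B128. The leaf change is below -0.7 or above 0.7 by the choice of the unigenes, and the root change is mostly below 0 in both panels.

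Descriptions for the unigenes were taken from the gene tables of the study, which list drought-responsive unigenes of these arrays. Of the 146, 66 are in those tables and 48 have a description, of which 35 name a function or family. The other unigenes are given by their code only. In 8 pairs or trios, 17 unigenes in all, the best database match is shared, and these may be parts of 1 transcript or close copies. No sequences of the unigenes were at hand.

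The transcription factor of highest rank was ZAT11 (UP12_1646), a C2H2 zinc finger protein. In leaves its log2 intensity was 14.59, 13.75 and 13.89 in WW B47 against 9.69, 9.79 and 9.95 under drought. In B128 leaves it was 7.85, 10.48 and 9.31 when watered and 12.97, 13.10 and 12.49 under drought. The groups did not overlap in either line, and the 3 WW B128 values were spread over more than the others. These levels correspond to a 19.3-fold lower level in B47 leaves and a 12.5-fold higher level in B128 leaves. In roots ZAT11 stood at 14.41, 14.06 and 14.15 in WW B47 and at 11.79, 11.89 and 10.84 under drought, and at 14.65, 14.29 and 14.82 and then 12.08, 13.24 and 11.60 in B128. It fell by 2.70 ± 0.48 (SE, limma adjusted p = 0.000134) in B47 roots and by 2.28 ± 0.48 (adjusted p = 0.000687) in B128 roots.

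The gene for dehydration-responsive element-binding protein 1D (UP12_15489), in Arabidopsis the drought-inducible CBF4, was alike. Its leaf values were 14.00, 12.65 and 13.79 in WW B47, 10.16, 10.18 and 10.39 in drought B47, 7.69, 9.64 and 8.84 in WW B128, and 12.58, 12.87 and 12.66 in drought B128. It had the highest leaf change of all 146 unigenes in B128, 3.98. In roots it read 12.76, 12.76 and 12.92 in WW B47 and 10.77, 10.81 and 10.59 under drought, and it fell by 2.09 ± 0.42 there and by 2.07 ± 0.42 in B128 roots, where it read 13.39, 13.19 and 14.60 and then 11.60, 12.24 and 11.13. Ethylene-responsive transcription factor 3 (UP12_7387), in Arabidopsis a repressor, had smaller leaf changes of -1.63 and 1.22, and its root changes of -0.70 and -0.75 did not reach 2-fold. Further zinc finger proteins were UP12_4209, with leaf changes of -3.63 and 2.71, and UP12_9546, with -3.02 and 0.99. Both fell in the roots of both lines, UP12_4209 by 3.14 ± 0.32 and 2.91 ± 0.32. Of the 14 described ERF/AP2 factors 2 were among the 146, and of 8 described WRKY factors none was. Of these 14 and 8, 11 and 6 were called lower in B47 leaves (8.18% of all unigenes were), whereas in B128 leaves 5 and 0 were called higher (6.31% of all unigenes were) and 7 and 3 lower (8.35% were). In both families more unigenes were thus called lower than higher in B128 leaves too. The described unigenes were listed by the study for their drought response on these arrays. High shares of calls were thus set beforehand, and the 2 ERF/AP2 factors among the 146 are in the leaf counts by choice.

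Calcium sensors gave 4 of the 146. The putative calmodulin UP12_2558 had the largest leaf change in B47, from 14.12, 12.70 and 14.06 to 7.55, 6.51 and 7.10, a 95.3-fold difference. In B128 leaves it stood at 7.04, 9.41 and 8.41 when watered and at 11.40, 11.21 and 10.81 under drought. In roots it fell by 3.56 ± 0.44 in B47 (adjusted p = 2.78e-06, limma) and by 3.27 ± 0.44 in B128 (adjusted p = 8.04e-06). The EF-hand protein UP12_18 and the calmodulin-like protein UP12_1676 also fell in the roots of both lines, by 1.65 and 1.37 and by 1.78 and 1.37.

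The calcium-binding protein CML40 (UP12_3527) went another way in roots. In leaves it read 11.80, 10.33 and 11.54 in WW B47 and 7.59, 7.69 and 7.75 under drought, and 6.78, 6.97 and 7.03 in WW B128 and 10.69, 10.66 and 10.29 under drought. In B128 roots it fell from 11.77, 11.71 and 12.07 to 10.44, 9.66 and 10.36, a change of -1.70 ± 0.29 (adjusted p = 9.52e-05, limma). In B47 roots the values of 10.92, 10.43 and 10.30 and, under drought, 10.70, 11.33 and 11.09 overlapped, and the change of 0.48 ± 0.29 did not pass the test (adjusted p = 0.176). The difference between these responses, -2.18 ± 0.41, narrowly missed the threshold (adjusted p = 0.0118). The calcium sensor list, made by description words, held 15 unigenes, among them calmodulin-binding proteins and a calmodulin-regulated ion channel. Of these 15, 11 were called lower in B47 leaves (8.18% of all unigenes were). In B128 leaves 6 were called higher (6.31% of all unigenes were) and 3 lower (8.35%). In the roots of B47 and B128, 5 and 8 were called lower (11.6% and 11.2% of all unigenes were). None was called higher in roots (10.9% and 10.5% were). The study listed these genes for their response on the same arrays, so that high shares of calls were set beforehand. The unigenes UP12_2558, UP12_18, UP12_1676 and CML40 are in the leaf counts of 11 and 6 by choice.

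All 4 unigenes described in those tables as CCR4-associated factors were among the 146. CAF1B was represented by UP12_18618 and UP12_1417 and a putative CCR4-associated factor 1 by UP12_15125 and UP12_29181, and the members of each pair share a best match. UP12_18618 read 13.77, 13.29 and 13.67 in WW B47 leaves and 11.45, 11.54 and 11.15 under drought. In B128 leaves it read 10.12, 11.52 and 10.63 and then 13.02, 12.69 and 12.17. Leaf changes of the 4 lay between -2.22 and -1.69 in B47 and between 1.46 and 1.87 in B128. In roots UP12_18618 read 14.24, 13.94 and 13.88 in WW B47 and 12.40, 12.44 and 12.56 under drought, and 14.26, 14.23 and 14.39 and then 12.66, 12.99 and 12.49 in B128. It fell by 1.55 ± 0.26 in B47 roots (adjusted p = 8.12e-05, limma) and by 1.58 ± 0.26 in B128 roots (adjusted p = 6.93e-05). All 4 were called in B47 roots and 3 in B128 roots, where the change of UP12_29181 was -0.95, just under 2-fold.

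Of 45 described ubiquitin ligases 2 were among the 146. The U-box ubiquitin ligase PUB21 (UP12_617) had leaf changes of -4.98 and 1.21 and fell in roots by 2.81 ± 0.31 in B47 and 2.73 ± 0.31 in B128. The RING-DUF1117 protein (UP12_7254), whose Arabidopsis relative is described as induced by abscisic acid and drought, read 13.45, 12.99 and 13.67 in WW B47 leaves and 10.85, 10.90 and 10.76 under drought, and 10.42, 10.83 and 10.57 and then 12.69, 12.22 and 11.73 in B128. In roots it fell by 1.98 ± 0.21 and 1.78 ± 0.21. Protein phosphatase 2C 25 (UP12_15751), known in Arabidopsis as AP2C1, a phosphatase of stress-activated MAP kinases, had leaf changes of -1.67 and 1.30 and root changes of -1.79 ± 0.23 and -2.09 ± 0.23. Protein phosphatase 2C 2 (UP12_2940) had -1.67 and 1.10 in leaves and fell by 1.73 and 1.92 in roots. These phosphatases were counted in an abscisic acid list by the words of their description, and of its 25 unigenes only they were among the 146. The receptor-type kinase CCR4 (UP12_1223), unrelated to the factors above, fell by 3.14 ± 0.31 and 2.41 ± 0.31 in roots, with leaf changes of -3.07 and 1.25.

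ACC synthase makes the direct precursor of ethylene, and 3 unigenes for it were among the 146, namely ACS6 (UP12_29720) and the pair UP12_3593 and UP12_19796, which share a best match. ACS6 stood at 10.52, 9.53 and 10.09 in WW B47 leaves and at 8.97, 9.38 and 8.60 under drought. In B128 leaves it stood at 7.15, 7.91 and 8.19 when watered and at 10.52, 10.99 and 10.91 under drought, an 8.33-fold difference. The leaf change of all 3 was larger in B128 (2.79 to 3.06) than in B47 (-1.46 to -1.06). In roots none of the 3 was called in either line, and they were thus part of the 47 that passed in neither. The values of ACS6 were 10.58, 10.28 and 10.65 in WW B47 roots, 10.60, 10.68 and 10.49 in drought B47 roots, 11.40, 10.80 and 11.92 in WW B128 roots and 10.76, 10.27 and 10.95 in drought B128 roots, which overlapped within each line. Its changes were 0.09 ± 0.30 (adjusted p = 0.833, limma) and -0.71 ± 0.30 (adjusted p = 0.0589). ACC oxidase carries out the final step to ethylene. None of the 3 unigenes described as ACC oxidase or ACC oxidase-like was among the 146.

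Genes of the cell wall were represented by 3 EXORDIUM unigenes, which share a best match, and a pair for galacturonosyltransferase-like 9, an enzyme family of pectin and xylan synthesis. EXORDIUM is known in Arabidopsis as a growth-promoting gene that responds to brassinosteroid. Leaf changes of UP12_13531, UP12_15448 and UP12_24315 were -2.97, -2.49 and -1.91 in B47 and 2.48, 2.43 and 1.79 in B128. All 3 fell in B47 roots, by 1.79, 2.02 and 1.18, and the first and second of these also in B128 roots, by 1.66 and 1.73. A further unigene described as EXORDIUM, UP12_2037, is not among the 146, and its leaf changes were of 1 sign, -3.06 in B47 and -1.79 in B128. The galacturonosyltransferase unigene UP12_7331 read 11.35, 10.36 and 11.41 in WW B47 leaves against 6.68, 6.31 and 6.90 under drought, and 6.66, 8.26 and 8.26 against 10.39, 9.55 and 9.40 in B128. It fell by 2.52 ± 0.39 in B47 roots and by 2.27 ± 0.39 in B128 roots, and its partner UP12_13813 fell by 1.64 and 1.87. Of 49 described cell wall unigenes, 28 were called lower in B47 leaves (8.18% of all unigenes were). In B128 leaves 30 were called lower (8.35%) and 9 higher (6.31%). In the roots of B47 and B128, 40 and 39 were called lower (11.6% and 11.2% of all unigenes were). The study listed these 49 for their drought response on the same arrays, so that high shares of calls were set beforehand. The 3 EXORDIUM unigenes of the 146 are in the leaf counts by choice.

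The unigene ranked highest by its leaf changes has no description. UP12_10029 read 11.16, 9.49 and 11.20 in WW B47 leaves and 4.59, 3.57 and 4.97 under drought, and 4.55, 5.86 and 4.88 in WW B128 leaves and 9.14, 8.84 and 8.44 under drought. It also fell most of all 146 in B47 roots, from 12.89, 12.80 and 12.89 to 6.36, 6.67 and 7.51, a change of -6.01 ± 0.45 (adjusted p = 4.49e-09, limma). In B128 roots it read 13.50, 13.47 and 13.80 and then 9.21, 9.16 and 8.18, and fell by 4.74 ± 0.45 (adjusted p = 1.21e-07). Drought-stressed roots of B128 stayed 2.00 above those of B47, just outside the threshold (adjusted p = 0.0105). UP12_27677, UP12_8679 and UP12_8680, of unknown function, were next to the zinc finger and calcium genes in rank, with leaf changes of -4.87 and 3.58, -5.19 and 3.17, and -4.98 and 3.09, and all 3 fell in the roots of both lines. Of the 20 unigenes of highest rank, 13 fell in the roots of both lines, 2 in 1 line only, and 5 passed the test in neither. Of all unigenes, 8.79% were down in both, 2.83% in B47 only, 2.44% in B128 only, and 72.2% were called in neither. Of the 146, 46.6% were down in both and 32.2% were called in neither.

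Pairs with a shared best match were alike in some values and not in others. The proteins related to At1g70420 (UP12_14863 and UP12_19113) fell by 3.41 and 3.07 in B47 roots and by 3.25 and 2.68 in B128 roots. Those related to At3g03280 (UP12_1792 and UP12_803) had leaf changes of -4.87 and -4.84 in B47. In B128 these were 2.72 and 2.64. The relatives of At3g02840 (UP12_2032 and UP12_21697) were alike in B47 leaves, at -4.41 and -4.70, but stood at 3.24 and 1.04 in B128 leaves. The galacturonosyltransferase pair had leaf changes of -4.41 and -1.49 in B47.

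Nudix hydrolase 17 (UP12_2414), of a family that cleaves nucleoside diphosphate derivatives, had the largest fall of the 146 in B128 roots. It read 11.75, 11.44 and 12.21 there when watered and 6.98, 7.32 and 6.53 under drought, a fall by 4.86 ± 0.44 (adjusted p = 6.19e-08, limma), and in B47 roots it fell by 3.91 ± 0.44. Its leaf values were lower, at 8.83, 7.11 and 8.56 in WW B47 and 5.29, 4.95 and 5.06 under drought, and 5.61, 5.45 and 7.01 and then 7.39, 7.53 and 7.80 in B128. UP12_14811, without description, fell by 4.17 ± 0.54 and 4.64 ± 0.54 in the roots of B47 and B128, and its leaf changes were -1.48 and 1.72. In the roots of B47 and B128, a mitochondrial dicarboxylate carrier (UP12_10410) fell by 2.75 and 2.14. A putative SCARECROW gene regulator (UP12_15234), a GRAS-type transcription factor, fell by 2.17 in B47 roots and fell by 2.97 in B128 roots.

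A minority rose in roots. PRH26 (UP12_29219), a reductase of sulphate assimilation in Arabidopsis, was the only described one among the 12 unigenes called up in at least 1 line. It rose from 7.55, 7.03 and 7.80 to 10.93, 11.10 and 10.89 in B47 roots, by 3.51 ± 0.24 (adjusted p = 1.17e-09, limma), and from 7.41, 7.30 and 7.93 to 10.54, 9.65 and 10.17 in B128 roots, by 2.57 ± 0.24. In leaves its changes were -0.86 and 1.43, against medians of -2.06 and 1.47 for the 146. UP12_20414 rose most in the roots of both lines, by 4.31 ± 0.39 and 2.90 ± 0.39, from 8.27, 6.89 and 6.55 to 11.33, 11.97 and 11.33 in B47 and from 8.29, 7.13 and 6.92 to 10.28, 10.11 and 10.65 in B128. UP12_19489 rose by 4.13 ± 0.38 in B47 roots and by 1.54 ± 0.38 in B128 roots. The difference of the 2 responses, -2.59 ± 0.54, did not pass the test (adjusted p = 0.0256). UP12_27012 and UP12_18973 each rose by 2.69 in B128 roots and by 1.34 and 1.85 in B47 roots. The highest rank among the 12, by the smaller of the leaf changes, was 52.

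**Figure D4:**
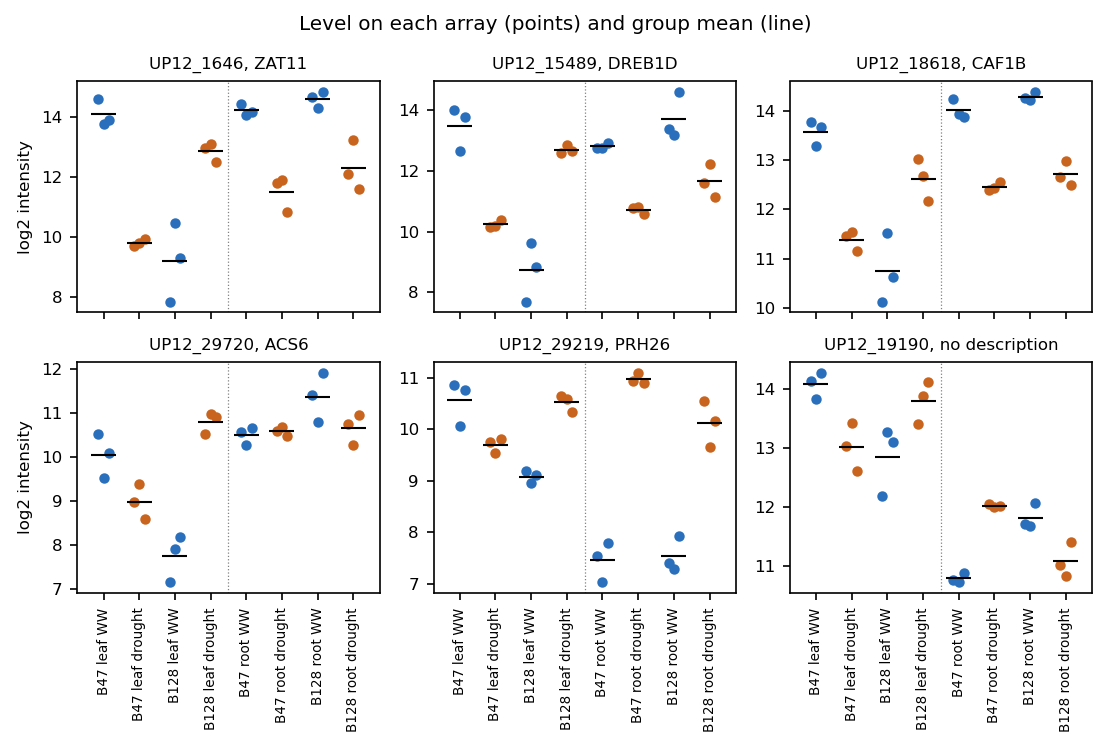
Log2 intensity of 6 unigenes on each array (points) with group means (lines), WW in blue and drought in orange. ZAT11, DREB1D and CAF1B are lower under drought in the roots of both lines, ACS6 overlaps between treatments in roots, PRH26 is higher in drought roots, and UP12_19190 is higher under drought in B47 roots and lower in B128 roots.

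Whether the lines responded differently in roots, as they did in leaves, was tested by the interaction of line and drought, taken as the B128 response from which the B47 response was subtracted. One of the 146 unigenes passed, with a lower response in B128 (0.224% of all unigenes did), and none with a higher one (0.0950% did). At an unadjusted p below 0.05 there were 25 (17.1%, against 9.15% of all unigenes). That unigene was UP12_19190, without description, which rose from 10.77, 10.73 and 10.89 to 12.05, 12.01 and 12.03 in B47 roots. In B128 roots it read 11.72, 11.68 and 12.08 when watered and 11.03, 10.84 and 11.42 under drought. The interaction was -1.96 ± 0.36 (adjusted p = 0.00972), opposite in sign to its leaf pattern, in which B47 was lower and B128 higher under drought (-1.05 and 0.95). Leaving out 1 root array at a time gave adjusted p between 0.00928 and 0.0312, and in 11 of the 12 cases the call was lost. With array weights, which count arrays with a large spread less, 20 of the 146 passed (13.7%), as did 5.93% of all unigenes. Cyclin p3;1 (UP12_28246) fell in B47 roots by 1.23 ± 0.29 and had a change of 0.86 ± 0.29 in B128 roots, and its interaction of 2.09 ± 0.41, in the direction of the leaf pattern, just missed the threshold (adjusted p = 0.0152). The median interaction of the 146 was 0.06 in roots, with 79 above 0 and 67 below, and 0.01 over all unigenes.

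The lines were also compared in WW roots. There, 3 of the 146 unigenes were called higher in B128 (1.20% of all unigenes were) and 3 lower (1.10% were), and at an unadjusted p below 0.05 there were 39 (26.7%, against 16.1% of all unigenes). The median difference, B128 minus B47, was 0.38 on the log2 scale in WW roots, 0.29 in drought roots and -0.02 over all unigenes in each, and it was thus small and opposite in sign to that of WW leaves. In 74 unigenes the 3 WW B128 root arrays lay above the 3 WW B47 root arrays, against 10.1% of all unigenes, and in 9 they lay below (10.8%). Under drought, B128 roots lay above B47 roots without overlap for 56 (9.13%) and below for 10 (9.69%), and 5 were called higher in B128 roots (1.01% were) and 1 lower (1.08% were). Mean levels of the 146 were 11.88, 11.66 and 11.87 in WW B47 roots, 12.12, 11.93 and 12.27 in WW B128 roots, 10.63, 10.86 and 10.76 in drought B47 roots and 11.07, 11.10 and 10.93 in drought B128 roots. WW leaves of B47 were near the root level, with a median difference of 0.27 between WW roots and WW leaves, whereas in B128 the WW roots exceeded the WW leaves by a median of 3.18.

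Those called between the lines in roots were few. CML40 was higher in WW B128 roots by 1.30 ± 0.29 (adjusted p = 0.00967, limma), but the call was lost in 10 of 12 omissions of a single array and in 4 of 7 other settings, namely the root arrays alone, the replicate block, normalization within each organ and a scaling that set the yeast control entries equal. UP12_3121 was higher in B128 roots by 1.85 ± 0.32 when watered and by 2.51 ± 0.32 under drought, and UP12_20209 by 1.63 ± 0.24 when watered, against 0.34 ± 0.24 under drought (adjusted p = 0.589). UP12_26173 and UP12_27012 were lower in WW B128 roots, by 1.75 ± 0.36 and 1.40 ± 0.30. Both calls were lost on the root arrays alone and without WW array 3 of B47 or WW array 1 or 3 of B128. Under drought, cyclin p3;1 was higher in B128 roots by 2.84 ± 0.29 (adjusted p = 1.31e-06) and UP12_20394 by 2.46 ± 0.33. UP12_20394 fell in the roots of both lines, by 4.01 ± 0.33 in B47 and 2.30 ± 0.33 in B128. UP12_8680 and UP12_14441 completed the 5, at 1.20 and 1.09. Both calls were lost with the yeast scaling and without drought array 1 or 2 of either line. That of UP12_14441 was also lost with the replicate block and without any other single root array except drought array 3 of B128.

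A pair of unigenes had the largest line differences of the 146 in WW leaves, in opposite directions (-5.88 and 4.46, B128 minus B47). UP12_17996 read 9.33, 9.68 and 9.84 in WW B47 leaves and 3.42, 3.63 and 4.16 in WW B128 leaves. It read 9.53, 9.65 and 9.60 in WW B47 roots against 4.47, 4.49 and 4.41 in WW B128 roots. Its B128 arrays lay between 3.42 and 4.72 in leaves and between 4.33 and 4.49 in roots, with no overlap with B47, and the root difference was -5.13 ± 0.18 when watered (adjusted p = 1.07e-13, limma) and -5.73 ± 0.18 under drought (adjusted p = 1.97e-14). UP12_12816, named after its values were seen, stood the other way in leaves, at 5.61, 3.95 and 4.95 in WW B47 and 9.18, 9.56 and 9.14 in WW B128. In roots it lay between 2.79 and 3.53 on all 12 arrays. The intensities carry no detection call, so whether such low levels lie above background was not tested.

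The limit of 0.7 cut through a continuous range of values. The last unigenes inside it were UP12_27012, with leaf changes of -0.72 and 0.71, UP12_21177, with -0.71 and 0.83, and UP12_4066, with -0.71 and 1.83. The nearest outside were UP12_12508, with -0.70 and 0.71, UP12_4122, with -0.70 and 0.84, and UP12_26447, with -0.69 and 1.25. Leaf changes of at least 1 in size in both lines, that is 2-fold, were reached by 107 of the 146 unigenes, and of at least 2 by 31.

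The 43 unigenes with the opposite leaf pattern gave other values in roots. Their median root change was 0.73 in B47 and -0.05 in B128, against -1.15 and -1.10. In B128 leaves they stood highest when watered, with a mean log2 level of 9.06, 7.96 and 8.37 on the 3 arrays, and in WW B47 leaves at 6.95, 6.87 and 6.68. The 2 sets were not tested against each other.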

How the data were processed

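RNA was hybridized to 24 custom NimbleGen arrays of 1 colour (Cy3), 3 for each of 8 groups of line, organ and treatment. Probe values were quantile-normalized and summarized per unigene by the Robust Multichip Average (RMA), and the authors deposited these values as linear normalized intensity. They cover 29471 unigenes, and 8 yeast control entries that were kept out of the tests. After quantile normalization, a shift common to most transcripts cannot be seen. Precision is limited by the 3 arrays per group, and array medians lay between 1506 and 1581.

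Groups and replicate numbers came from the labels. The log2 of the intensity was used without a pseudocount (lowest value 4.52). The fit had a mean for each group on all 24 arrays (limma 3.58.1, R 4.3.3), with 16 residual and 2.88 prior degrees of freedom. Benjamini-Hochberg adjustment was over all 29471 unigenes within a comparison. The script was tested on simulated data, and tables and plots were made in Python 3.11.15. The tables of the study gave gene descriptions only, and none of their values was used.

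The unigenes, the lists and the tests were chosen with earlier results of these data known. Named were the 20 unigenes of highest rank, the 3 largest changes per direction among root calls, those in 1 of 15 lists by description words, and those at the limit. UP12_14441, UP12_12816, UP12_2037 and the described unigenes in no list were named after their values were seen. WRKY, jasmonate, receptor kinase and defence, chaperone, flavonoid and auxin lists held 0 of the 146, the redox list 1 of 47 (a phospholipid hydroperoxide glutathione peroxidase, UP12_23011), the ubiquitin ligase list 2 of 45 and the list of MYB, NAC, bHLH and zinc finger factors 3 of 70. Alternatives were other scalings, fits, filters and thresholds, and leaving out each array.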

Additional observations from a re-analysis of the deposited data

Results flagged for a closer look

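The leaf responses of all 146 unigenes moved in opposite directions in the 2 lines, which follows from how they were chosen and was not tested. In roots the response to drought differed between the lines by test in 1 of them, UP12_19190, whose interaction was -1.96 on the log2 scale (limma). All 3 drought arrays of B47 roots lay above, and all 3 of B128 roots below, the WW arrays of the same line. The call was lost in 11 of 12 omissions of a single root array and in 4 of 7 other settings. Groups of 3 arrays are too small for a check of single outlying arrays.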

How the results depend on the processing

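The counts of unigenes down-regulated in roots stayed within 1.5 times under every alternative tried, between 70 and 81 in B47 and between 63 and 76 in B128 when 1 array was left out, and at 90 and 94 with the yeast control entries set equal. The yeast scaling moved the median of all unigenes by -0.31 in B47 roots, -0.40 in B128 roots and 0.32 in B47 leaves. With it, 1865 unigenes were called up and 4723 down in B47 roots, against 3208 and 3425 as deposited, and 1508 and 5170 in B128 roots, against 3096 and 3310. Up-regulated unigenes numbered 10 to 11 in B47 roots and 8 to 9 in B128 roots without single arrays. In B128 roots there were 5 without the 25% of unigenes of lowest mean.

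Counts between the lines in roots were small and moved with the settings, and the cause was not tested. The interaction gave 0 with the replicate block, without the 25% of lowest mean and with equal array medians, 4 at an FDR of 0.05, 20 with array weights, and 0 to 2 without single arrays. Unigenes higher in B128 in WW roots numbered 5 with array weights (3.42%, against 2.47% of all unigenes), 7 at an FDR of 0.05 and 2 to 4 without single arrays. Those lower in WW roots numbered 1 (UP12_17996) on the 12 root arrays alone and 1 to 3 without single arrays, with 1 left without WW array 3 of B47 or WW array 1 or 3 of B128. In drought roots, those higher in B128 numbered 8 on the root arrays alone and 20 with array weights (13.7%, against 3.56% of all unigenes). There were 3 without the 25% of lowest mean, 3 with the yeast scaling and 8 at an FDR of 0.05. Without single arrays there were 3 to 7, with 3 left without drought array 1 or 2 of either line. Those lower in drought roots numbered 4 with array weights (2.74%, against 3.67% of all unigenes) and 0 without the 25% of lowest mean. There were 2 with the yeast scaling, 2 at an FDR of 0.05 and 1 to 2 without single arrays. For these line comparisons, shares over all unigenes at the other settings are not given here.

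The limits of the leaf choice were met by 147 to 189 unigenes without single leaf arrays. Same-numbered drought and WW root arrays of a line had residuals that correlated between -0.40 and 0.03, and 0 of 6 correlated best with their own number. Between the lines under 1 treatment the range was -0.22 to 0.57, and 4 of 6 correlated best with their own number. The correlation was not above 0.1 in every pair of any comparison, so that the numbers were not taken to pair the arrays. The replicate block changed no drought call of a named unigene in roots.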
